A study of Mus musculus with 6 samples.

Results

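Genes for drug- and lipid-metabolising cytochrome P450 enzymes and for the enzymes that conjugate their products were compared between kidneys after long and short ischaemia. The genes were chosen by symbol alone: every protein-coding gene of the count table named as a member of P450 families 1 to 4 (Cyp1, Cyp2, Cyp3, Cyp4), of the UDP-glucuronosyltransferases (Ugt1, Ugt2, Ugt3), of the sulphotransferases (Sult) or of the lettered classes of glutathione transferases (Gsta to Gstz). This gave 140 of the 35275 genes in the table, of which 22026 are protein-coding. Poly-A RNA was sequenced from kidneys of wild-type C57BL/6 mice that had been killed 28 days after ischaemia-reperfusion injury, a model that interrupts renal blood flow and lets it return. The mild group had 20 min of ischaemia (3 kidneys, libraries 7, 8 and 9) and the severe group 35 min (3 kidneys, libraries 13, 14 and 15). The study addresses the passage from acute kidney injury to chronic kidney disease. Age, sex and whether 1 or both kidneys were clamped are not given in the labels. Uninjured kidneys were not analysed here, and each fold change sets severe against mild injury. Nothing in the labels states that the kidneys are from different animals, so the p-values cover the spread of these 6 samples, part of which may be technical.

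Cytochrome P450 enzymes are haem proteins of the endoplasmic reticulum that insert oxygen into drugs, steroids and fatty acids, with electrons passed on by cytochrome P450 reductase. Conjugating enzymes then attach glucuronic acid (Ugt), sulphate (Sult) or glutathione (Gst), which makes the products water-soluble and ready for export into urine or bile. In the kidney these enzymes are known above all from the proximal tubule, where Cyp2c and Cyp2j enzymes form epoxides of arachidonic acid and Cyp4a enzymes hydroxylate it at its end, lipids that act on vessel tone and salt transport. Several of them are also known to be expressed at different levels in male and female mouse kidneys.

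Of the 140 genes, 74 had enough counts to be tested (20 Cyp2, 14 Cyp4, 2 Cyp1, 12 Ugt, 7 Sult and 19 Gst genes), and 66 did not. The libraries held between 15240491 and 17730967 counts. A gene read 0 times could still have had up to 3 counts, which is 0.169 to 0.207 CPM (counts scaled for library size) depending on the library, a floor that covers counting error only. CPM values below are scaled by the trimmed mean of M-values (TMM). The Y-linked gene Ddx3y was read in all 6 libraries, between 52.2 and 62.1 CPM, and Xist lay at 0.291 CPM or less. All 25 proximal tubule markers of a fixed list had enough counts for the test, which accords with the labelled tissue. Among severe kidneys, library 14 stood apart for many genes and library 13 lay close to the mild ones. Fold changes without these libraries are given beside the members that they moved by over 1.5 times or brought past the test.

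After the longer ischaemia the abundant members of these families read lower on average and a few scarcer ones, led by Cyp1b1, read higher, but no member passed the test. By edgeR's quasi-likelihood test with Benjamini-Hochberg adjustment over all 14883 genes tested, 0 members were called higher and 0 lower at an adjusted p of 0.05, against 0.00672% of all tested genes in each direction, which is 1 gene each way. At an unadjusted p under 0.05, 12 members were higher and 12 lower, where 15.8% and 7.89% of all genes were. DESeq2 called 3 members higher and 0 lower (6.91% and 0.954% of all genes), limma-voom called 0 and 0, and limma-voom with sample quality weights called 8 and 27 (18.2% and 15.7% of all genes). Leaving out severe library 13 gave 7 higher and 18 lower calls of 75 members tested (13.8% and 7.74% of all genes), and leaving out severe library 14 gave 1 higher call, Cyp2d22, and 0 lower ones (2.4% and 0.931%). With all 6 libraries the adjusted p-values of the 74 members lay between 0.0867 and 0.982, and 2 members, Cyp1b1 and Cyp2d22, were under 0.10, where 3.76% of all genes were higher at that threshold and 0.376% lower.

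By the values themselves, 20 members had all 3 severe libraries below all 3 mild ones and 10 had all 3 above. These are 27% and 13.5% of the 74, where 16.1% and 17.9% of all tested genes separated in these directions. Under scaling by library totals, which moved the median of all genes to 0.17, the counts were 12 and 13 (6.61% and 29.2% of all genes), and without severe library 13 they were 40 and 13 (26.8% and 29.7%). The log2 fold change, severe over mild, was below 0 for 57 members (77%, against 49.9% of all genes), with a median of -0.25. Under library totals 47 members lay below 0 and their median was -0.08, and leaving out each library in turn gave medians of -0.33 to -0.13. Members with a mean over the 6 libraries of at least 100 CPM, a split chosen after the values were seen, were 24, and all 24 had a fold change below 0, although under scaling by library totals Cyp4a14 and Gstp1 came out above 0 and 22 remained below. Abundant genes in general leaned the same way here, since 77.8% of all 1933 genes at or above 100 CPM were below 0. Of the 24, 9 separated downwards (37.5%) and 0 upwards, where 43.7% and 9.05% of the 1933 did. The median of the 24 was -0.43 and that of the 1933 genes was -0.19. The 17 members with a fold change above 0 all lay below 100 CPM.

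**Figure D1:**
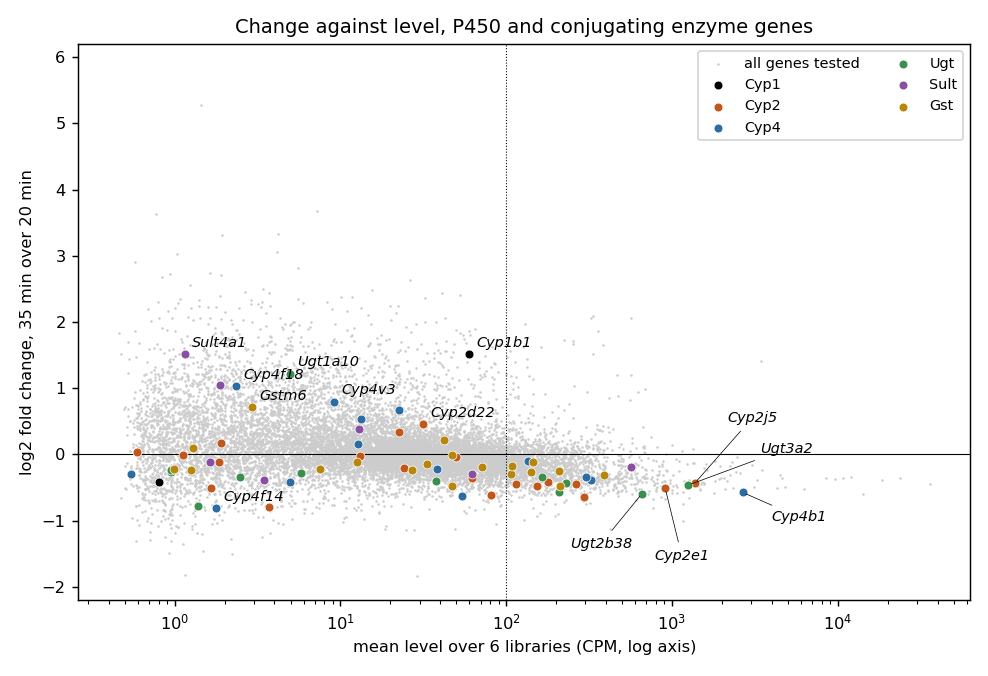
Log2 fold change (35 min over 20 min of ischaemia, vertical axis) against the mean level over 6 libraries in CPM (horizontal log axis) for 74 tested members, coloured by family, and for all 14883 tested genes in grey. All 24 members to the right of the dotted line at 100 CPM lie below 0, and Cyp1b1 and Sult4a1 lie highest at 1.52.

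Summed over the tested members, expression was 13765.5, 13652.7 and 13986.7 CPM in the mild libraries and 13145.9, 7127.19 and 10610.6 CPM in severe libraries 13, 14 and 15. The mean was 13802 ± 170 CPM in mild and 10295 ± 3022 CPM in severe ones (SD, n = 3 each), and all severe sums lay below all mild ones. The severe mean was 74.6% of the mild one, 86.1% without library 14 and 64.6% without library 13. By family, the severe mean was 70.9% of the mild mean for Cyp4, 71.3% for Ugt, 73.1% for Cyp2, 83.5% for Gst and 88.1% for Sult. The 2 tested Cyp1 genes, almost all of it Cyp1b1, summed the other way, to 281% of the mild mean (227%, 352% and 263% in libraries 13, 14 and 15). The order of the libraries was the same in each of the other 5 sums: library 13 was nearest to the mild mean or above it (85.7% to 113%), library 15 next (71.2% to 80.7%) and library 14 lowest (42.7% to 74.9%). Single genes weighed heavily in these sums, most of all in Cyp4 and Sult. Cyp4b1 made up 3198 of 4209 CPM of the mild Cyp4 mean, and Sult1d1 603 of 690 CPM of the mild Sult mean. Cyp2j5 made up 1575 of 4133 CPM of the mild Cyp2 mean. Ugt3a1 and Ugt3a2 together made up 1696 of 2994 CPM of the mild Ugt mean. Within Cyp4, the severe mean was 80.7% of the mild one for summed Cyp4a genes, 101% for Cyp4f genes and 174% for Cyp4v3. In a bulk sample, fewer cells of a type and less RNA per cell cannot be told apart.

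**Figure D2:**
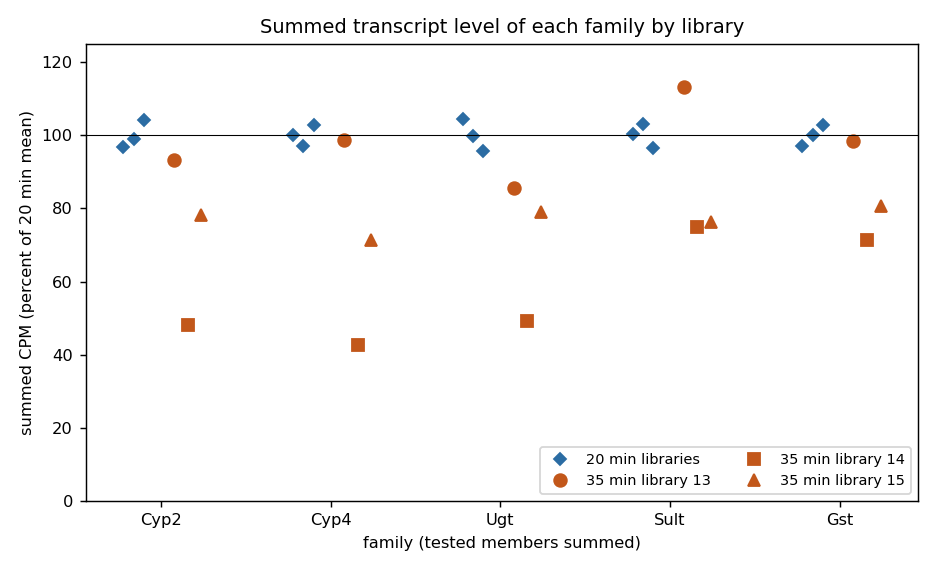
Summed CPM of tested members by family, in percent of the mean of the mild (20 min) libraries, with 1 point for each of the 3 libraries per group. The mild libraries lie close together in each family, and the severe libraries spread downwards from 13 over 15 to 14.

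Cyp4 enzymes hydroxylate fatty acids at their far end. Cyp4b1, which acts on short fatty acids and some toxins, was the most highly expressed member per length of transcript, at a mean of 1423 CPM per kb of the gene length in the deposited table. It lies on chromosome 4 (mm10, 115624725 to 115647709, minus strand). It read 3319, 2973 and 3301 CPM in mild libraries 7, 8 and 9 and 3067, 1164 and 2213 CPM in severe libraries 13, 14 and 15. Library 13 lay inside the mild range, 15 below it and 14 at 36.4% of the mild mean. The log2 fold change was -0.57 ± 0.33 (SE; edgeR adjusted p = 0.302); it was -0.91 (adjusted p = 0.0461) without library 13 and -0.28 without library 14. The Cyp4a genes, targets of the fatty acid sensor PPAR alpha in textbook accounts, lie beside it on chromosome 4. Cyp4a10 read 325, 411 and 368 CPM in mild and 376, 203 and 262 CPM in severe kidneys (-0.39 ± 0.22). Cyp4a31 read 296, 382 and 339 CPM against 327, 186 and 293 CPM (-0.34 ± 0.21). In both, library 13 stood within the mild range and the other severe libraries below it. Without library 14 the fold changes were -0.20 and -0.13, and without library 13 Cyp4a10 was at -0.65 (edgeR adjusted p = 0.025). Cyp4a10 and Cyp4a31 share 30.5% and 21.8% of their 50-base stretches with another gene, chiefly Cyp4a32, so their reads are not assigned with certainty. Cyp4a14 ranged from 88.2 to 186 CPM in mild and from 90.4 to 195 CPM in severe libraries (-0.09 ± 0.34; -0.49 without library 13 and 0.02 without library 14), so no direction can be read from it.

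The neighbouring copies Cyp4a12a and Cyp4a12b, enzymes known to be male-biased and to form vasoconstrictor lipids, had fold changes of opposite sign. Cyp4a12a read 90.3, 38.3 and 69.5 CPM in mild and 73.7, 21.3 and 33.1 CPM in severe kidneys (-0.63 ± 0.46). Cyp4a12b read 16.5, 15.0 and 20.5 CPM against 35.2, 29.2 and 18.6 CPM (0.68 ± 0.23, edgeR adjusted p = 0.15). Both pairs of groups overlapped. Cyp4a12a was at -0.30 without library 14 and at -1.27 (adjusted p = 0.0476) without library 13. The copies share 48.9% and 49.4% of their 50-base stretches with another gene, chiefly each other, so the split of reads between them is uncertain.

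Among Cyp2 genes, Cyp2j5, a renal enzyme that makes arachidonic acid epoxides, was the most highly expressed per length (584 CPM per kb). It read 1533, 1597 and 1594 CPM in mild and 1396, 855 and 1243 CPM in severe kidneys. All severe values lay below all mild ones (-0.44 ± 0.21, edgeR adjusted p = 0.236). Cyp2j13 read 313, 279 and 322 CPM against 297, 156 and 220 CPM (-0.44 ± 0.22), with library 13 inside the mild range. Other genes of the same cluster on chromosome 4, looked up after their values were seen, differed in level. Cyp2j11 had a fold change of -0.47 ± 0.20 with no overlap, while Cyp2j6 (45.2, 49.2 and 55.8 CPM against 51.8, 48.8 and 45.9 CPM) and Cyp2j9 (12.01 to 14.2 CPM against 11.9 to 14.1 CPM) had fold changes of -0.04 ± 0.10 and -0.03 ± 0.12. Under scaling by library totals Cyp2j6 and Cyp2j9 turned to 0.13 each. Without library 14 Cyp2j5 was at -0.26, Cyp2j11 at -0.26, Cyp2j13 at -0.23 and Cyp2j9 at 0.03. Without library 13 Cyp2j13 was at -0.69 and Cyp2j11 at -0.65 (edgeR adjusted p = 0.0225 and 0.0359), while Cyp2j6 and Cyp2j9 were at -0.07 and -0.08. The differences between these neighbours were not tested. Cyp2j6 begins at 96516138 and ends at 96553661, between Cyp2j11 (96294508 to 96348662) and Cyp2j5 (96628773 to 96664154), all on the minus strand of mm10.

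Cyp2e1, which oxidises ethanol, acetone and small solvents, read 1010, 1013 and 1174 CPM in mild and 951, 407 and 896 CPM in severe kidneys (-0.50 ± 0.30, edgeR adjusted p = 0.317). The groups did not overlap, and library 14 stood at 38.2% of the mild mean. The fold change was -0.21 without library 14. Cyp2a4, a steroid hydroxylase, read 356, 371 and 344 CPM against 341, 113 and 235 CPM (-0.64 ± 0.34), again with no overlap, although it shares 38.8% of its 50-base stretches with another gene, chiefly Cyp2a5. It was at -0.31 without library 14 and at -1.03 (adjusted p = 0.0339) without library 13. Cyp2f2, an enzyme that activates naphthalene in the lung, was scarce and also separated, at 4.55, 4.61 and 4.87 CPM against 3.37, 1.52 and 3.20 CPM (-0.80 ± 0.29, adjusted p = 0.169; -0.51 without library 14). Cyp2c44, an arachidonic acid epoxygenase, read 25.2, 25.9 and 26.9 CPM against 24.4, 21.4 and 21.5 CPM (-0.21 ± 0.09), a small but separated difference. The vitamin D 25-hydroxylase Cyp2r1 lay between 0.719 and 1.51 CPM in both groups, with a fold change of -0.02 ± 0.35 (-0.20 without library 13 and 0.09 without library 14). In all, 16 of 20 Cyp2 genes had fold changes below 0 and 6 separated downwards, where 16.1% of all genes did. Of the separated ones, Cyp2j5, Cyp2e1, Cyp2a4 and Cyp2j11 lay above 100 CPM, where 43.7% of all genes separated downwards. The Cyp2 median was -0.39, with a range of -0.58 to -0.14 when a library was left out, and -0.12 with no filter on low counts.

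The promoters of these abundant P450 genes are shown because they hold the letters of a TATA box core, TATAAA. On either strand, these letters stood in 12 of the 72 promoters of tested members (16.7%) and in 12.4% of all 32851 promoters of the same length. By the level split chosen after the values were seen, they stood in 8 of the 22 promoters of members at or above 100 CPM (36.4%). In scarcer tested members the share was 8%. The 250 bases before the RefSeq start are printed 5′ to 3′ along the gene (RefSeq, GRCm38.p6, the assembly called mm10), with the match in capitals. That of Cyp2e1 (chr7:140763569-140763818, plus strand) begins 31 bases before the start. That of Cyp2j5 (chr4:96664120-96664369, minus strand) reads on the opposite strand and begins 128 bases before the start.
Cyp2e1: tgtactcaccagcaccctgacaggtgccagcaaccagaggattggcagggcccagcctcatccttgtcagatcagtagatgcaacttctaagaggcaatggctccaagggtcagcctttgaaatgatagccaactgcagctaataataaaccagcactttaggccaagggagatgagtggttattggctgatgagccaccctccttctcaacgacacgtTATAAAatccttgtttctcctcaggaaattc
Cyp2j5: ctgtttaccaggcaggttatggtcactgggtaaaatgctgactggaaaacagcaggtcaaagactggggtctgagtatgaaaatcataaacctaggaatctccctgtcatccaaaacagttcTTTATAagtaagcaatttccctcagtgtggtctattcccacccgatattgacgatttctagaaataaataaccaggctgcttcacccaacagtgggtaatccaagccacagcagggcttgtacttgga
The starts in the count table lie further upstream than these RefSeq starts, so the printed windows reach into the genes as counted. A match describes letters and is not evidence of a bound factor.

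Cyp2d26 and Cyp2d22 lie in the same cluster on chromosome 15 and pointed in opposite directions. Cyp2d26 read 184, 207 and 223 CPM in mild and 197, 108 and 154 CPM in severe kidneys (-0.42 ± 0.20, edgeR adjusted p = 0.243), with library 13 inside the mild range; it was at -0.22 without library 14 and at -0.64 (adjusted p = 0.0288) without library 13. Cyp2d22, the mouse gene often set beside human CYP2D6, read 28.3, 25.6 and 25.5 CPM against 35.9, 39.9 and 33.5 CPM (0.46 ± 0.09, adjusted p = 0.0867). Its severe values lay above all mild ones, and its call was past 0.05 with DESeq2 (adjusted p = 0.00899) and without library 14 (0.0349) or 13 (0.0201). Only 6.14% of its 50-base stretches recur in another gene, chiefly Cyp2d26.

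Of the Ugt genes, 11 of 12 had fold changes below 0 and 6 separated downwards, with a median of -0.37, and 0 separated upwards, where 16.1% and 17.9% of all genes separated in these directions. Of the separated ones, Ugt3a2, Ugt3a1, Ugt2b38 and Ugt1a7c lay above 100 CPM, where 43.7% of all genes separated downwards. Ugt3a2, of a branch known to use sugar donors other than glucuronic acid, had the highest level per length (537 CPM per kb). It read 1508, 1434 and 1405 CPM in mild and 1299, 713 and 1139 CPM in severe kidneys, with no overlap (-0.46 ± 0.23, edgeR adjusted p = 0.251). Its neighbour Ugt3a1 read 251, 263 and 226 CPM against 204, 103 and 195 CPM, also with no overlap (-0.56 ± 0.24). Ugt2b38 read 869, 780 and 729 CPM against 630, 335 and 612 CPM, and again every severe value lay below every mild one (-0.59 ± 0.24, adjusted p = 0.198). It shares 37.4% of its 50-base stretches with other Ugt2b genes. Ugt2b34 read 42.3, 43.2 and 42.8 CPM against 36.2, 25.2 and 35.5 CPM, with no overlap (-0.41 ± 0.14, adjusted p = 0.147). Genes of the Ugt1a locus share their last exons, so reads there cannot be assigned with certainty: Ugt1a7c (260, 259 and 272 CPM against 253, 146 and 186 CPM, -0.44 ± 0.19) has 69.3% and Ugt1a6a 100% of its 50-base stretches in another gene. Without library 14 the fold changes were -0.25 for Ugt3a2, -0.31 for Ugt3a1, -0.35 for Ugt2b38, -0.25 for Ugt2b34 and -0.26 for Ugt1a7c. Without library 13 Ugt2b34 (-0.49, edgeR adjusted p = 0.0388) and Ugt1a7c (-0.66, 0.0119) passed the test. Ugt1a1, the bilirubin-conjugating enzyme, had 10 counts in all 6 libraries together and was not tested. Ugt1a2 was scarce and overlapped, at 1.10, 0.778 and 1.24 CPM in mild and 0.640, 1.13 and 0.799 CPM in severe kidneys. Its fold change was -0.27 ± 0.34 (edgeR adjusted p = 0.639), -0.09 without library 13 and -0.52 without library 14.

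The sulphotransferases were mixed, with 3 of 7 tested genes separated upwards and 2 downwards (17.9% and 16.1% of all genes). Sult1d1, which sulphates catecholamines and eicosanoids, read 607, 618 and 583 CPM in mild and 697, 441 and 448 CPM in severe kidneys (-0.19 ± 0.20, edgeR adjusted p = 0.558), with library 13 above and the others below the mild range. Sult1c2 separated downwards with a small spread, at 67.7, 73.4 and 64.7 CPM against 59.4, 50.5 and 58.2 CPM (-0.29 ± 0.09, adjusted p = 0.13). Sult1a1, the phenol sulphotransferase, separated upwards at 10.5, 12.8 and 10.5 CPM against 16.6, 13.8 and 13.6 CPM (0.38 ± 0.14, adjusted p = 0.166). Sult5a1 (0.965, 1.62 and 1.10 CPM against 2.38, 3.54 and 1.72 CPM) and the brain-type Sult4a1 (0.551, 0.479 and 0.755 CPM against 0.756, 2.93 and 1.41 CPM) also separated upwards, with fold changes of 1.05 ± 0.35 and 1.52 ± 0.53. Sult4a1 in library 13 almost touched the highest mild value. Without library 14 Sult1d1 was at -0.07 and Sult4a1 at 0.86, and without library 13 Sult1d1 (-0.43, edgeR adjusted p = 0.0424), Sult1c2 (-0.33, 0.0449) and Sult4a1 (1.88, 0.0212) passed the test. The median of the 7 tested Sult genes was -0.12, and it turned to 0.07 under scaling by library totals, to 0.37 with no filter on low counts, to 0.33 without mild library 7 and to 0.05 without severe library 15.

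Of 19 tested glutathione transferases, 16 had fold changes below 0, while 4 separated downwards and 2 upwards, shares near those of all genes (16.1% and 17.9%). The median was -0.21; it was -0.05 under scaling by library totals and -0.28 to -0.09 when a library was left out. Gstm1, the main mu-class enzyme, read 403, 446 and 433 CPM in mild and 403, 291 and 344 CPM in severe kidneys (-0.30 ± 0.14, edgeR adjusted p = 0.237), and libraries 14 and 15 lay below the mild range. Gstz1, which also acts in tyrosine breakdown as maleylacetoacetate isomerase, read 252, 246 and 237 CPM against 221, 124 and 181 CPM with no overlap (-0.48 ± 0.19, adjusted p = 0.193). Gstk1, a mitochondrial and peroxisomal enzyme, read 51.6, 54.5 and 58.1 CPM against 51.3, 27.0 and 39.9 CPM (-0.47 ± 0.20, adjusted p = 0.207), with no overlap and library 13 just under the lowest mild value. Gsta4, which detoxifies hydroxynonenal from lipid peroxidation, read 27.4, 29.8 and 30.3 CPM against 26.7, 22.8 and 24.8 CPM (-0.24 ± 0.09), separated as well. Gsta2, inducible through Nrf2, read 194, 233 and 248 CPM against 214, 195 and 159 CPM (-0.25 ± 0.14) and overlapped, as did the theta-class Gstt1 (-0.17 ± 0.11). Gstp1 lay between 138 and 166 CPM in mild and between 120 and 172 CPM in severe ones (-0.11 ± 0.15). Gsta2, Gstp1 and Gstm1 share 64.2%, 62.3% and 23.15% of their 50-base stretches with another gene. Upwards, Gsto1, an omega-class enzyme, read 39.0, 38.1 and 39.4 CPM against 41.1, 49.3 and 45.2 CPM (0.22 ± 0.09), and Gstm6 read 2.41, 1.86 and 2.40 CPM against 3.49, 4.28 and 3.20 CPM (0.72 ± 0.22, adjusted p = 0.126). Without library 14 the fold changes were -0.19 for Gstm1, -0.28 for Gstz1, -0.26 for Gstk1, -0.09 for Gstt1 and -0.01 for Gstp1. Without library 13 Gstz1 (-0.68, edgeR adjusted p = 0.0222), Gstk1 (-0.70, 0.0184) and Gsto1 (0.29, 0.0443) passed the test, Gstt1 was at -0.28 and Gstp1 at -0.28.

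Cyp1b1 stood out among the members that read higher in severe kidneys. It encodes a P450 of the aryl hydrocarbon receptor pathway that metabolises oestrogens and retinoids and is known from mesenchymal cells. It lies on chromosome 17 (mm10, 79706953 to 79715041, minus strand). It read 38.0, 32.7 and 22.03 CPM in mild and 71.2, 112 and 83.1 CPM in severe kidneys. Every severe value lay above every mild one, the mean was 30.9 ± 8.12 CPM against 88.6 ± 20.8 CPM (SD, n = 3), and the log2 fold change was 1.52 ± 0.23 (edgeR adjusted p = 0.0867). DESeq2 gave an adjusted p of 3.38e-07, limma-voom with quality weights 0.000592, and edgeR without library 13 gave 0.00419 (0.0635 without library 14). No 50-base stretch of its transcripts recurs in another gene. The other tested member of its family, Cyp1a1, the classical target of the same receptor, was near the floor of detection at 0.689, 0.838 and 1.24 CPM against 1.05, 0.338 and 0.676 CPM (-0.42 ± 0.45; -0.86 without library 13 and -0.09 without library 14). Cyp1a2 was at 0 counts in all 6 libraries.

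In Cyp4, 3 of 14 genes separated upwards and 2 (Cyp4f13 and Cyp4f14) downwards, shares near those of all genes (17.9% and 16.1%). The Cyp4 median was -0.26, with a range of -0.49 to -0.06 when a library was left out. Cyp4v3, a fatty acid hydroxylase of many tissues, read 7.31, 6.17 and 6.52 CPM in mild and 9.31, 15.2 and 10.2 CPM in severe kidneys (0.80 ± 0.21, edgeR adjusted p = 0.104). DESeq2 gave it an adjusted p of 0.0187. Cyp4f16 read 10.8, 10.4 and 11.4 CPM against 12.2, 17.0 and 18.1 CPM (0.54 ± 0.16, adjusted p = 0.126), and shares 26.5% of its 50-base stretches with other genes, chiefly Cyp4f37. Cyp4f18, a leukotriene hydroxylase known from leukocytes, read 0.896, 1.92 and 1.78 CPM against 2.15, 5.18 and 2.15 CPM (1.04 ± 0.44, adjusted p = 0.207). Cyp4f14 had the lowest fold change of the 74 members, at 2.34, 2.16 and 2.26 CPM against 1.80, 0.225 and 1.84 CPM (-0.81 ± 0.56), and it was -0.30 without library 14, where Cyp4f13 was at -0.12 (-0.22 ± 0.10 with all libraries) and Cyp4f18 at 0.48. Cyp2s1, an epithelial P450, read 17.6, 20.2 and 21.5 CPM against 21.2, 26.4 and 27.6 CPM (0.34 ± 0.13, adjusted p = 0.171) and overlapped by library 13. Without library 13 Cyp4v3 (0.95, edgeR adjusted p = 0.0163), Cyp4f16 (0.70, 0.00867) and Cyp2s1 (0.46, 0.0266) passed the test.

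**Figure D3:**
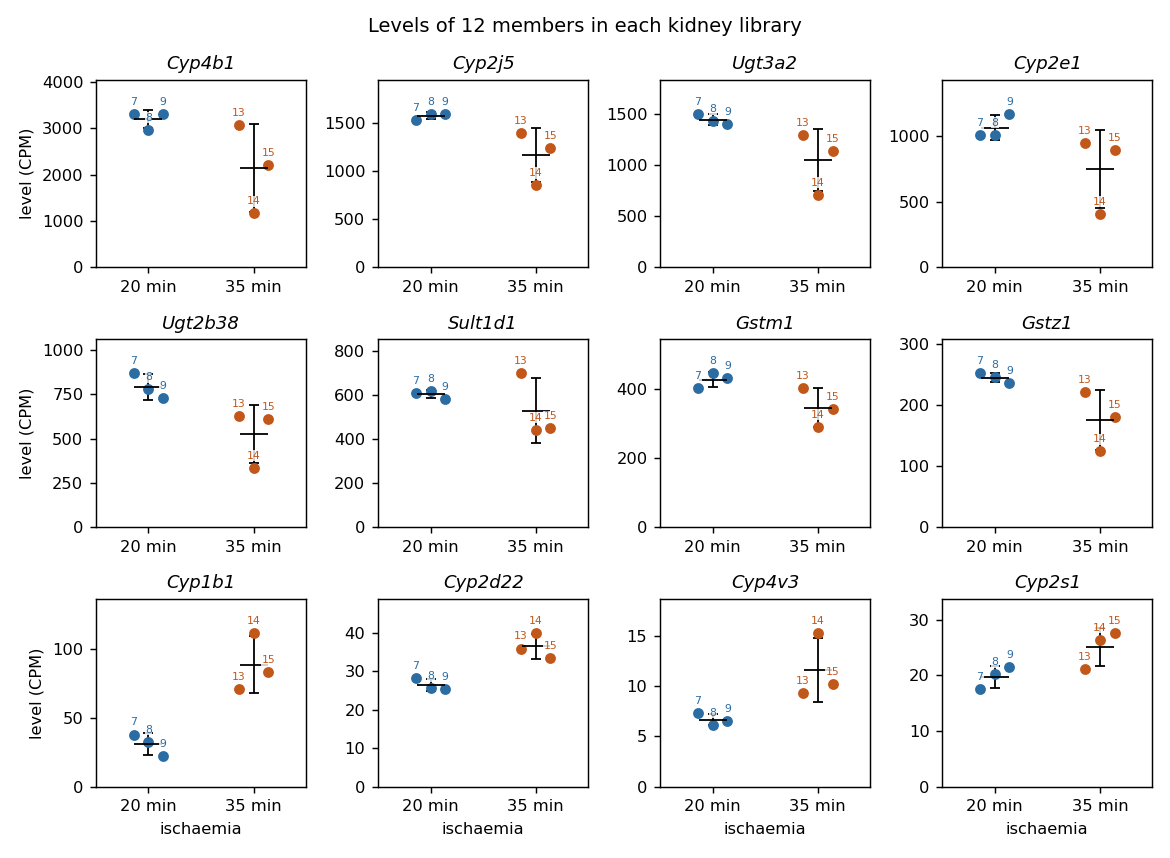
Level in CPM of 12 members in each library, by minutes of ischaemia, with library numbers beside the points and the mean and SD of 3 libraries as bars. In the 8 genes of the upper rows library 14 is the lowest of the 6, and in Cyp1b1, Cyp2d22 and Cyp4v3 all severe points lie above all mild ones.

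The promoters of Cyp1b1 and Cyp4v3 are shown for the core of the xenobiotic response element, GCGTG, the letters bound by the aryl hydrocarbon receptor. Each holds 1 match, printed in capitals, in the 250 bases before its RefSeq start (GRCm38.p6). In Cyp1b1 (chr17:79715062-79715311, minus strand) it reads on the opposite strand and begins 76 bases before the start, and in Cyp4v3 (chr8:45333164-45333413, minus strand) it begins 16 bases before. Cyp4v3 in the count table reaches to 45333216, so its match lies inside the gene as counted.
Cyp1b1: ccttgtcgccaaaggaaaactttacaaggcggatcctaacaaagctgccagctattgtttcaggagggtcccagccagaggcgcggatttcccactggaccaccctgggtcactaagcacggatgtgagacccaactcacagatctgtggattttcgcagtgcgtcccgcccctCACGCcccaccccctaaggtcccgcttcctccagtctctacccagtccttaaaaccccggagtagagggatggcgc
Cyp4v3: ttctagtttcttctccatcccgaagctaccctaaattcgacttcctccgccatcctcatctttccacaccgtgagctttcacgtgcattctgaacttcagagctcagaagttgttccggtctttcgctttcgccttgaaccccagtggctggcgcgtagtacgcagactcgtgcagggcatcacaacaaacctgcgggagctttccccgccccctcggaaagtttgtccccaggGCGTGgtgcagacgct
The same letters, on either strand, stood in 23.6% of the 72 promoters of tested members and in 28.2% of all promoters, so they do not mark these genes. Also searched on both strands, the nuclear receptor core AGGTCA stood in 11.1% of members' promoters (14% of all) and the antioxidant response element core TGACNNNGC in 6.94% (10.2% of all). Promoters were matched by symbol for 58 of the 74 tested members, some with more than 1 start, and members of a gene cluster can share promoter sequence.

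The severe libraries differed from each other more than the mild ones did. The SD of log2 CPM over the 3 severe libraries was larger than that over the 3 mild ones in 62 of the 74 members, and in 24 of the 24 at or above 100 CPM. Library 14 was the lowest of the 6 libraries in 45 members and in 20 of the 24 abundant ones. Library 13 lay inside the mild range in 27 members, below it in 24 and above it in 23, while library 15 lay below it in 43 and library 14 in 48. Averaged over the 24 abundant members, log2 CPM was 0.04, 0.87 and 0.39 below the mild mean in libraries 13, 14 and 15.

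**Figure D4:**
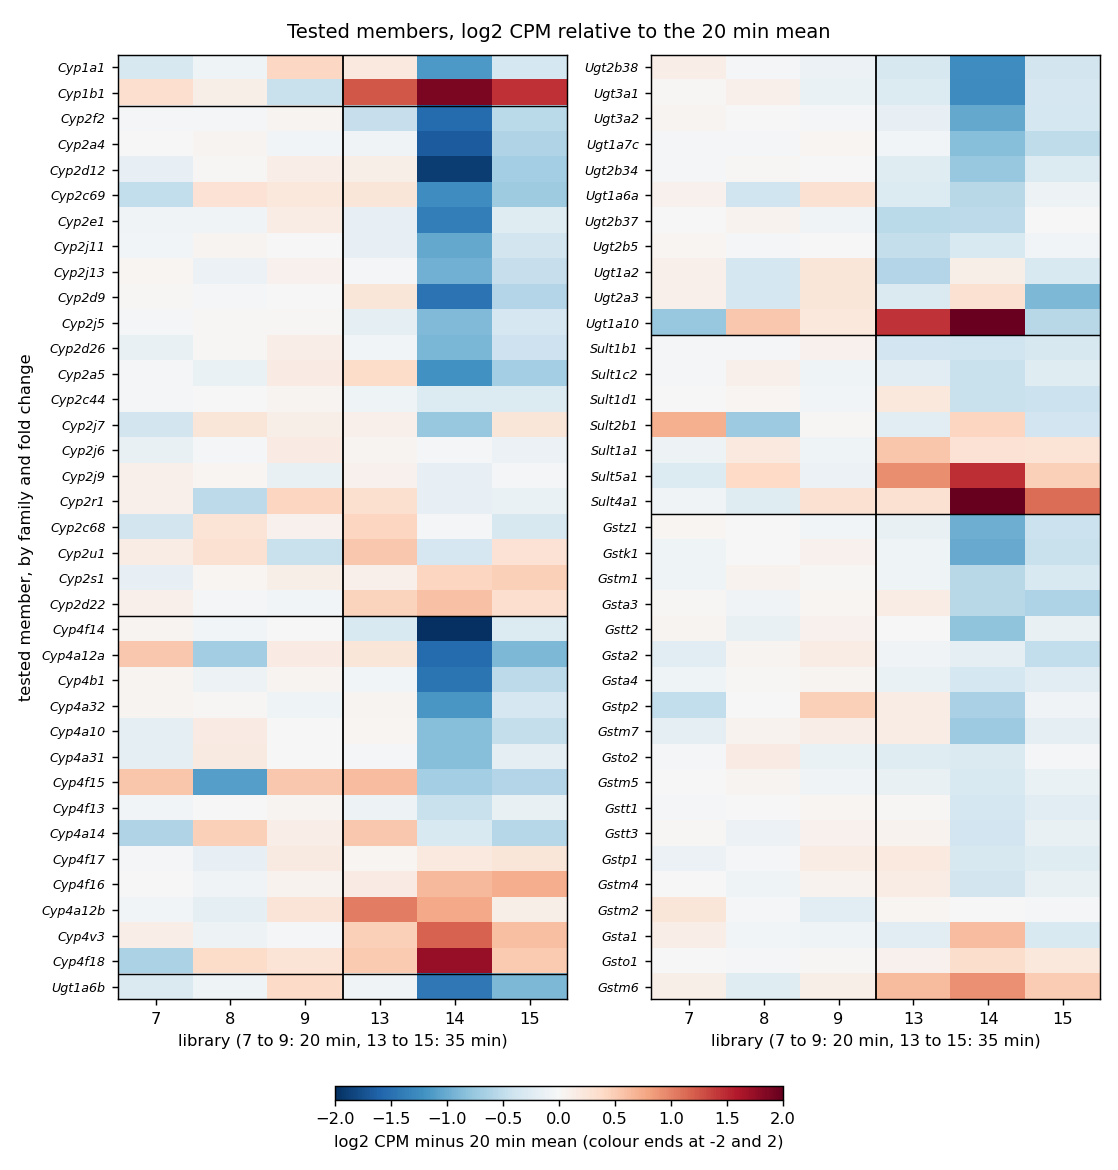
Log2 CPM of each tested member in each library minus its mean over the 3 mild libraries, by family and ordered by fold change, with libraries in columns and colours that end at -2 and 2. Library 14 shows the deepest blue in the Cyp2, Cyp4 and Ugt rows, and the red rows of Cyp1b1 and Cyp4v3 run across libraries 13 to 15. Sult4a1 is at 0.31 both in library 13 and in mild library 9.

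Other steps of the same pathway were read from lists, and 0 of their genes passed the test in either direction. Their counts of separated genes stand beside shares over all tested genes of 16.1% downwards and 17.9% upwards, or 43.7% and 9.05% at or above 100 CPM. P450 enzymes need an electron supply. Of 10 tested electron donors, 8 had fold changes below 0 and 5 separated downwards, with a median of -0.22. Por, the cytochrome P450 reductase, read 335, 346 and 390 CPM in mild and 315, 191 and 307 CPM in severe kidneys (-0.40 ± 0.20). The donors of the conjugation reactions leaned likewise: 17 of 18 genes for the supply of UDP-glucuronic acid, activated sulphate and glutathione had fold changes below 0 and 7 separated downwards, with a median of -0.22. Gclc, the catalytic subunit of the enzyme that limits glutathione synthesis, read 414, 404 and 379 CPM against 323, 259 and 330 CPM, with no overlap (-0.39 ± 0.13, edgeR adjusted p = 0.146). Among 26 other conjugating and mercapturate enzymes the median was -0.36, with 12 separated downwards and 1 upwards. The gene separated upwards was Nnmt, which methylates nicotinamide, at 1.45, 1.08 and 0.755 CPM against 1.57, 5.01 and 2.58 CPM (1.48 ± 0.47, adjusted p = 0.134).

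Of 37 tested enzymes for other oxidation, reduction and hydrolysis steps, 17 separated downwards and 6 upwards (16.1% and 17.9% of all genes), with a median of -0.36. Dpyd, which breaks down pyrimidines and fluorouracil, read 94.0, 97.1 and 96.7 CPM in mild and 81.4, 57.1 and 71.4 CPM in severe kidneys (-0.46 ± 0.12, edgeR adjusted p = 0.111). The scarce carbonyl reductase Cbr3 read 1.52, 1.98 and 1.92 CPM against 3.55, 5.46 and 3.38 CPM (1.19 ± 0.26, adjusted p = 0.0867). P450 genes outside families 1 to 4 had a median of 0.07 over 12 tested genes. Ptgis, the prostacyclin synthase of vessel walls, read 2.48, 2.76 and 2.196 CPM against 4.94, 5.06 and 5.41 CPM, all severe libraries alike (1.05 ± 0.18, adjusted p = 0.0867), while the lanosterol demethylase Cyp51 separated downwards (-0.58 ± 0.26). Export pumps were mixed, with 3 of 14 separated in each direction. The conjugate exporter Abcc3 read 5.51, 5.75 and 3.91 CPM against 7.15, 15.3 and 9.59 CPM (1.08 ± 0.29, adjusted p = 0.111).

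Of 26 tested transcription factors known to control these enzymes, 8 separated downwards and 0 upwards (16.1% and 17.9% of all genes), with a median of -0.11. Esrra, a regulator of oxidative metabolism, read 179, 167 and 176 CPM in mild and 146, 96.3 and 138 CPM in severe kidneys, with no overlap (-0.46 ± 0.15, edgeR adjusted p = 0.149). Bcl6, a repressor of sex-biased liver genes, varied widely within both groups, at 21.4, 29.6 and 15.4 CPM against 50.5, 24.9 and 98.9 CPM. Other regulators were looked up after their values were seen. Hnf4a read 943, 948 and 909 CPM against 816, 542 and 715 CPM (-0.43 ± 0.18). The PPAR alpha gene Ppara had a fold change of -0.42 ± 0.18 with overlap, the aryl hydrocarbon receptor gene Ahr 0.46 ± 0.26 with overlap, and the Nrf2 gene Nfe2l2 0.03 ± 0.10.

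Cell type markers moved with the same libraries. Of all tested genes, 16.1% separated downwards and 17.9% upwards. At or above 100 CPM these shares were 43.7% and 9.05%, and 77.8% of genes had fold changes below 0. All 25 proximal tubule markers had fold changes below 0 and 20 separated downwards, with a median of -0.50. Their summed level was 46801.8 to 47989.5 CPM in mild and 20797.6 to 40480.2 CPM in severe ones. All 10 fibroblast markers separated upwards (median 1.86, summed level 683 to 866 CPM against 1491 to 4884 CPM), as did all 11 macrophage markers (median 1.14, 337 to 406 CPM against 623 to 1231 CPM). Of 10 injured tubule markers, 4 separated upwards and 10 had fold changes above 0 (median 1.36, 2278 to 3005 CPM against 3083 to 10549 CPM). None of the markers in these 4 lists was at 0 in all libraries. Library 14 was the farthest from the mild mean in each of the 4 lists, with the averaged log2 level of proximal tubule markers at -0.21, -1.02 and -0.34 and that of fibroblast markers at 0.85, 2.38 and 1.59 in libraries 13, 14 and 15. The part of these shifts in the levels of the P450 and conjugating genes was not tested.

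**Figure D5:**
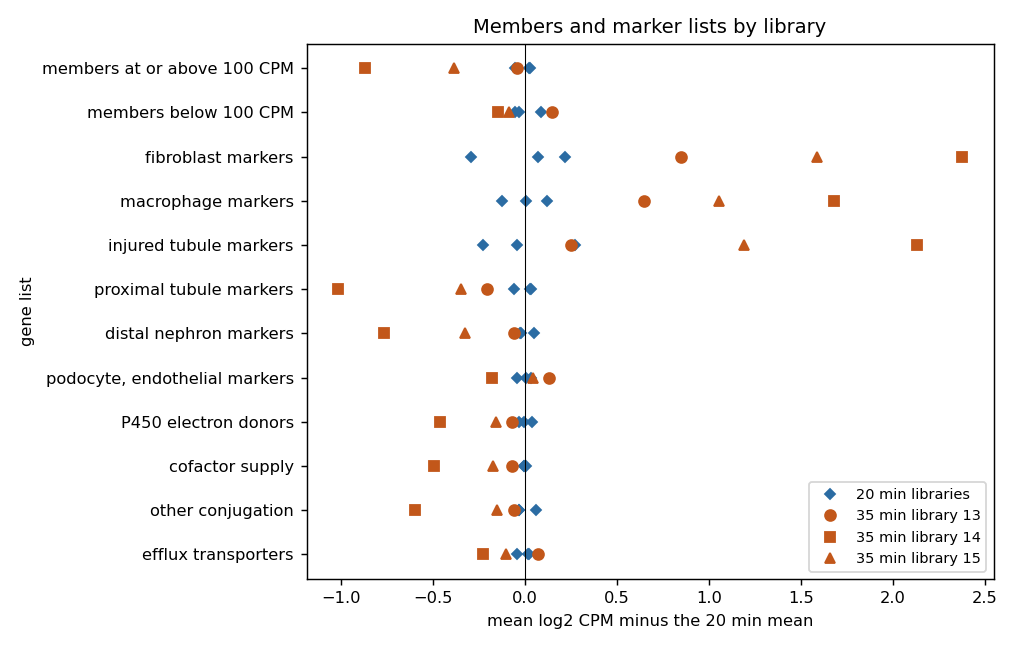
Mean log2 CPM minus the mean of the 3 mild libraries, for the members and for the pathway and marker lists (rows), with 1 point per library. Severe libraries order as 13, 15 and 14, downwards for abundant members and proximal tubule markers and upwards for fibroblast and macrophage markers. For abundant members library 13 (-0.04) lies among the mild points (-0.05 to 0.03).

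Of the 66 members that were not tested, 30 had 0 counts in every library and the highest total was 64 counts, for Cyp2t4. All 9 Cyp3 genes were among them, the family that in liver handles many drugs. Cyp3a13 had 7, 11 and 9 counts in mild and 8, 14 and 6 counts in severe libraries, 55 in all, and 7 of the 9 were at 0. Further untested genes were 29 of 49 in Cyp2, 11 of 18 in Sult, 8 of 20 in Ugt, 6 of 20 in Cyp4, 2 of 21 in Gst and 1 of 3 in Cyp1. A difference in these genes was not detectable at this depth.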

How the data were processed

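The authors deposited a table of raw read counts per Ensembl gene for 6 kidney libraries, made, per the labels' protocols, from TRIzol-extracted and DNase-treated RNA with poly-T selection and a NEBNext Ultra kit. Per the submitters' processing notes the tools were Bowtie2 2.2.3, TopHat2 2.0.12 and HTSeq 0.6.1 on mm10. What each tool did, the annotation used and whether counting used strand: not given in the sources used here. Without strand, reads of a gene and of an overlapping or antisense gene cannot be told apart, and members with near copies are uncertain. For this, transcripts of GENCODE M21 were cut into all stretches of 50 bases, and 24 of 74 tested members share over 20% of them with another gene.

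The minutes of ischaemia in the column names placed each library in its group. No column name equals a sample title, and samples were not paired. The number of columns left out was 0. Library totals were 15366602, 17730967 and 15433713 (mild 7, 8 and 9) and 17679697, 15240491 and 15589500 (severe 13, 14 and 15). Counts were filtered with filterByExpr, scaled by TMM (factors 0.943 to 0.945 in mild libraries and 0.974, 1.17 and 1.04 in severe libraries 13, 14 and 15) and tested across all genes with edgeR 4.0.16 (robust quasi-likelihood F test, R 4.3.3), with Benjamini-Hochberg adjustment and a threshold of 0.05. Standard errors are the log2 fold change over the root of F. List levels by library use log2 CPM with a prior count of 2. The steps were tested on simulated counts with known changes. Their spread was the same in both groups, so the wider spread of the severe libraries was not covered.

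Alternatives were scaling by RLE, by the upper quartile or by library totals, no filter, at least 1 CPM in at least 3 libraries, medians over members at a mean of at least 10 CPM, DESeq2 1.42.0, non-robust dispersion, limma-voom (limma 3.58.1) plain or with weights for sample quality, and each library left out. A threshold of 0.10 was added after seeing the data. The members, lists and tests were chosen with earlier results of these data known. Named were the members with the smallest p and the highest level per kb in each family, those with the largest fold changes, a set of anchor genes, and up to 3 genes per pathway list. Genes outside that rule are marked, except single genes of the cell type, sex-linked and sex-biased lists, which the rule does not cover. Ugt1a6a, Cyp1a2 and Cyp2t4 were also chosen after their values were seen. Lists of distal nephron, podocyte and endothelial, hepatocyte, perirenal fat and adrenal, and sex-biased genes are given with the other observations. Promoters were taken from RefSeq (GRCm38.p6). A regulator gene that the rule names, and a motif, are not reported here.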

Additional observations from a re-analysis of the deposited data

How the results depend on the processing

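No paired analysis was possible because the columns carry numbers that match no sample title, and the labels number the 2 groups without a shared number. Library totals in place of TMM moved the median of all genes to 0.17, left 12 members separated downwards and 13 upwards (6.61% and 29.2% of all genes), and gave medians of -0.22 for Ugt, -0.049 for Gst and 0.07 for Sult. With no filter the Sult median was 0.37, over genes of very few counts. Members past an adjusted p of 0.05 numbered 3 higher with DESeq2 (Cyp1b1, Cyp2d22 and Cyp4v3), 8 higher and 27 lower with limma-voom and quality weights, and 2 higher (Cyp1b1 and Cyp2d22) at 0.10 in edgeR. Leaving out a library in turn gave 0 to 7 higher and 0 to 18 lower calls, 20 to 40 members separated downwards (40 without severe library 13, 26.8% of all genes) and a Sult median of -0.16 to 0.33. Sign changes occurred in 3 of the 43 tested members that the naming rule chose, and Cyp2j6 and Cyp2j9, named outside it, changed sign with library totals (0.13 each). Cyp2r1 was 0.015 with upper-quartile scaling, 0.14 with library totals, 0.029 with limma-voom and between -0.26 and 0.25 with a library left out. Cyp4a14 was 0.051 with library totals and between -0.49 and 0.17 with a library left out, and Gstp1 was 0.046 with library totals. Depth limits the 66 untested members, and 3 libraries per group with unequal spread limit the rest; the causes of these shifts were not tested.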

Other observations

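Some genes known for sex-biased levels in mouse kidney differed between libraries that all carry Y-linked reads. They were read because several P450 and conjugating genes share that property. Slc7a12, known to be higher in females, read 8.0, 11.1 and 11.4 CPM in mild and 13.6, 47.8 and 17.8 CPM in severe libraries 13, 14 and 15 (log2 fold change 1.38 ± 0.45, edgeR adjusted p = 0.143). Slco1a1, known to be higher in males, read 323, 200 and 252 CPM against 186, 41.0 and 179 CPM (-0.93 ± 0.49, adjusted p = 0.271). Slc7a13, also male-biased, read 863, 841 and 887 CPM against 775, 312 and 672 CPM (-0.56 ± 0.30). The oxysterol hydroxylase Cyp7b1, chosen after its values were seen, read 203, 184 and 170 CPM against 145, 37.0 and 135 CPM (-0.81 ± 0.43). In each of these 4 genes all severe libraries lay on 1 side of all mild ones and library 14 was the farthest. The naming rule did not choose these 4 genes, so they do not stand for the list. Of its 10 genes, 4 separated downwards, 2 upwards and 4 overlapped, Gsta2 among the overlapping ones, with a median of -0.50. The shares over all tested genes were 16.1% and 17.9%, or 43.7% and 9.05% at or above 100 CPM.

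Markers of other cells gave smaller values. Of 12 distal nephron markers, 10 had fold changes below 0 and 4 separated downwards (median -0.35). Of all tested genes 16.1% separated downwards, and 43.7% of those at or above 100 CPM. Podocyte and endothelial markers had a median of 0.06 over 12 genes. The 8 tested of 10 hepatocyte markers summed to 180 to 215 CPM in mild and 204 to 297 CPM in severe libraries. Alb lay at 1.97 to 6.59 CPM over all libraries, and Cps1 and Ahsg were at 0 counts in each mild library. Of 11 perirenal fat and adrenal markers, only 2 had enough counts to be tested, at mean levels of 3.20 and 49.2 CPM. These 2 summed to 39.9 to 64.4 CPM in mild and 48.0 to 59.1 CPM in severe libraries. The other 9 had at most 72 counts each over all libraries, and Th was at 0 in all libraries.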
